A study of Homo sapiens with 2 samples.

Results

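The 10 genes described here encode glycolysis enzymes of the human cell: GAPDH, ENO1, PKM, LDHA, LDHB, ALDOA, PGK1, TPI1, PGAM1 and GPI. They were examined for 5-methylcytosine (m5C) in RNA bisulfite sequencing (BS-Seq) of 2 cell lines. The sites described are the cytosines with a coverage (unconverted plus converted counts) of at least 10 on the same-strand exons of the basic GENCODE transcripts of these genes, in GRCh37 coordinates throughout. This gave 3012 of the 1584002 kept sites in MCF10A and 2756 of the 1271253 kept sites in MDA-MB-468. Of these, 2551 were kept in both lines, among 812729 such sites in all.

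The libraries are labelled MCF10A, a normal mammary epithelial line, and MDA-MB-468, a breast cancer line, both from ATCC, and the labels name no treatment. The labels name DMEM for both, whereas the methods of the study give DMEM/F12 for MCF10A and RPMI for MDA-MB-468, so the culture medium and the line cannot be told apart. Poly(A) RNA was treated with bisulfite at 60 degrees for 8 hours, which converts cytosine to uracil and leaves m5C, and also cytosine that escapes conversion, as cytosine. There was 1 library per line, so every p-value compares the reads of 2 libraries, or a site with its own library, and not the lines.

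In glycolysis, glucose is split into trioses that are oxidised to pyruvate, which yields ATP, and lactate dehydrogenase then reduces pyruvate to lactate. Many tumour cells take up glucose and release lactate even when oxygen is present, and the enzymes described here belong to this route. m5C is written on RNA by NSUN family methyltransferases and is bound in mRNA by proteins such as ALYREF, which takes part in mRNA export.

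The marker genes of the lines were checked first. All 5 epithelial markers had kept sites in MDA-MB-468, but only 3 of 5 did in MCF10A, where CDH1 and EPCAM, which encode E-cadherin and an epithelial adhesion molecule, had no kept site. Their levels there were 0.0996 and 0.0378 counts per kb of exon per 1000000 nuclear exonic counts, against 14.5 and 64.4 in MDA-MB-468. The CDH1 and EPCAM values go against an epithelial label. Of the other listed epithelial and basal markers, KRT8, KRT18, KRT19, KRT5 and KRT17 went the other way. Each had kept sites in MCF10A and a level above 7.17, the median of genes with counts. The fibroblast marker DCN did as well, whereas the basal markers KRT14 and TP63 had no kept site there, at 1.97 and 0. The markers thus gave a mixed picture of this library. Of the 498 KRT19 counts at kept sites in MCF10A 63.9% were unconverted, against 1.45% in MDA-MB-468. KRT8 and KRT18 had 4.29% and 6.14% in MCF10A, and KRT5 and KRT17 had 1.64% and 1.57%. The library is called MCF10A as the labels do. The other epithelial markers, the keratins KRT8, KRT18 and KRT19, were at 34.7, 38.3 and 18.7 there and at 391.8, 581.7 and 7652 in MDA-MB-468. Of the 4 basal markers, KRT5 was at 103.6 and 53.8 and KRT17 at 91.2 and 1130, in MCF10A and MDA-MB-468 in that order, and KRT14 and TP63 had no kept site in either. Of the 3 fibroblast markers, DCN had kept sites in MCF10A alone, at a level of 8.46, and COL1A1 in MDA-MB-468 alone, at 21.5. Of the 2 leukocyte markers, PTPRC was at 0 in both lines and CD74 at 0 in MCF10A but 7.71 in MDA-MB-468. The endothelial marker VWF was at 0 in both, and PECAM1 was not analysed here. The part of these markers in the results was not tested.

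The glycolysis mRNAs were deeply covered and mostly converted. Their median coverage was 93 in MCF10A and 70 in the MDA-MB-468 library, whereas all kept sites had a median of 18 in each line. The pooled nonconversion rate, the summed unconverted counts as a share of the coverage, was 1.62% of 544017 counts in MCF10A (95% Wilson interval 1.58% to 1.65%), against 1.99% for all kept sites. In MDA-MB-468 it was 1.24% of 412010 counts (1.21% to 1.27%), against 1.81%. The intervals, here and below, cover counting error only, and they are too narrow because neighbouring cytosines share reads. The pooled rate weights sites by depth. As the mean of the per-site methylation ratios (unconverted counts over coverage), the same sites gave 2.43% and 2.10%. All kept sites gave 2.31% and 1.92%, so the direction of the difference from all sites turned. At sites with a coverage of at least 100, the pooled rate of these genes in MCF10A was 1.47%, against 1.57% for mRNA sites. In MDA-MB-468 it was 1.08% against 1.49%.

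A site was called an m5C site when it exceeded the pooled rate of its library in Fisher's exact test (one-sided) with an adjusted p (Benjamini-Hochberg over all kept sites) under 0.05. In MCF10A 18 of the 3012 sites of the glycolysis genes passed (0.598%, 95% Wilson interval 0.378% to 0.943%), where 0.96% of all kept sites did. In MDA-MB-468 16 of 2756 passed (0.581%, 0.358% to 0.941%), where 0.84% of all did. All kept sites include mitochondrial ones. Of the mRNA sites alone, 0.848% passed in MCF10A and 0.73% in MDA-MB-468, each inside the interval of the glycolysis genes. The m5C sites lay in 6 genes in MCF10A but in 3 genes in MDA-MB-468. Of all genes with at least 50 kept sites, 30.1% and 26.1% held one. Leaving out sites under a coverage of 20 lowered the count in MDA-MB-468 to 5, and a Bonferroni adjustment left 1 site in MCF10A and 0 in the MDA-MB-468 library, the latter against 16 by the main test.

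At deep sites, where a low ratio can be seen, m5C calls were few. Among sites with a coverage of at least 100, 3 of 1463 were m5C sites in MCF10A, 1 each in ENO1, GAPDH and LDHA (0.205%, 0.0698% to 0.601%), and 1.56% of the 73065 mRNA sites of that depth were. In MDA-MB-468 none of 1100 was, which allows up to 0.348% by the Wilson interval, and 1.51% of 50616 mRNA sites were. The highest ratio at such a depth in the glycolysis genes was 10.1% in MCF10A against 6.56% in MDA-MB-468. Over all mRNA sites of that depth it reached 96.2% and 88.6%.

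**Figure D1:**
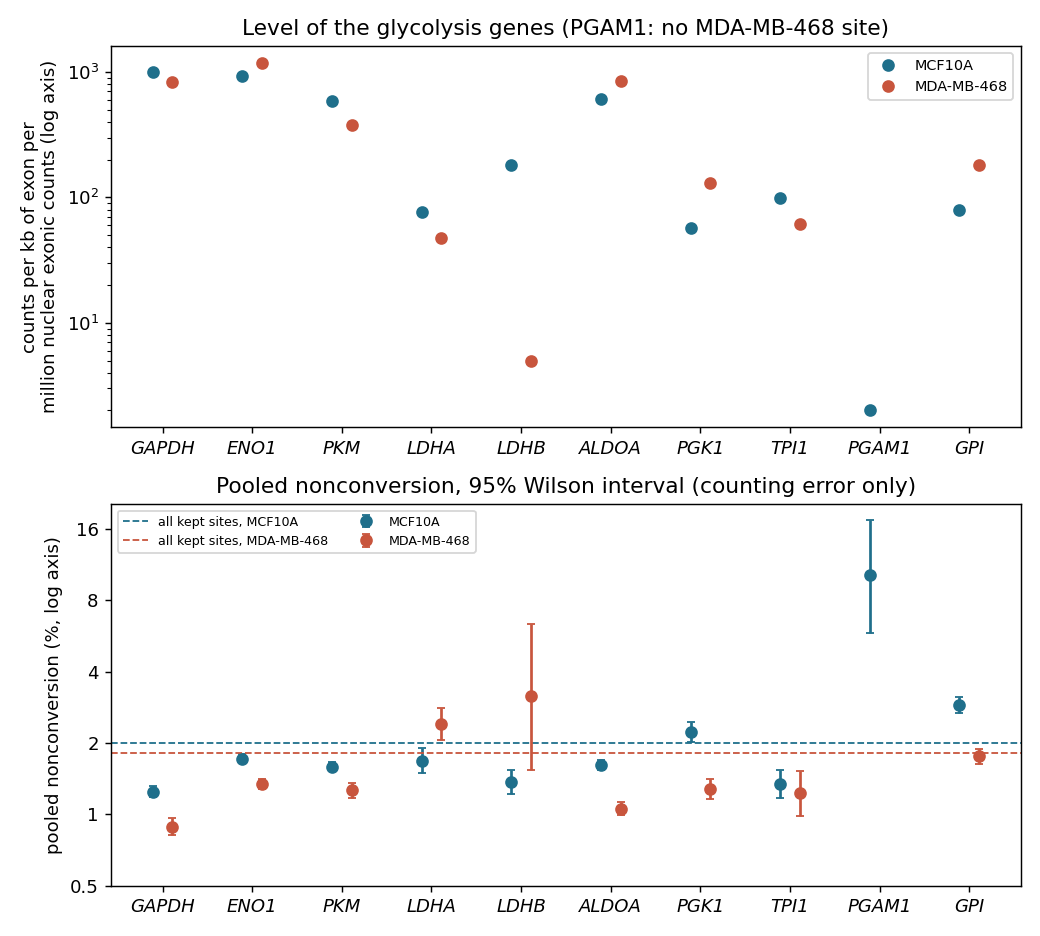
The upper panel shows the level of each gene in the 2 libraries, in counts per kb of exon per 1000000 nuclear exonic counts on a log axis, and the lower panel the pooled nonconversion rate in percent on a log axis, with 95% Wilson intervals (counting error only) and dashed lines at the rate of all kept sites of each library (1.99% and 1.81%). LDHB is at 181.8 in MCF10A and 4.99 in the MDA-MB-468 library, and GAPDH has the lowest rate in MDA-MB-468 at 0.888%.

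GPI, the isomerase that turns glucose phosphate into fructose phosphate, held most of the m5C sites: 10 of 18 in MCF10A against 12 of 16 in MDA-MB-468. All but 1 in each line lay in runs, and the runs of the lines were at different places of the mRNA. The longest run of each line and a shorter one are shown on the transcript strand, with the m5C sites of the line in capitals, because most calls of these genes fall in them.
GPI exon 6, CDS, MCF10A, chr19:34868673-34868700 (+): tactcttCaggaggtCCCCgCgtctggt
GPI exon 18, 3′UTR, MCF10A, chr19:34890932-34890960 (+): agtccaataaaCtCgtgCtcatctgcagc
GPI exon 18, 3′UTR, MDA-MB-468, chr19:34892482-34892509 (+): agatctCCCaCCtCagCCtCCCacagtg

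In the exon 6 run, all 6 kept sites over 14 nt passed in MCF10A, with 4 or 5 unconverted counts of 16 to 30 and ratios from 16.7% to 25%. In MDA-MB-468 the same cytosines had ratios from 3.85% to 18.8% and none was an m5C site. In the run that MDA-MB-468 had in the last exon, all 11 kept sites over 16 nt passed with 4 or 5 unconverted counts of 10 to 12, a ratio of 33.3% to 41.7%. MCF10A had 0 unconverted counts at 10 of these 11 cytosines and 1 of 9 at the other, where coverage was 8 to 10 and 0 of 10 still allows 27.8% by the Wilson interval. The 3 sites of the shorter run each had 4 unconverted counts of 10 in MCF10A, and 1 of 22 to 24 in MDA-MB-468. Each run thus rests on 4 or 5 unconverted counts per cytosine, and the tables do not say whether these come from the same reads. The deepest m5C site of GPI was in exon 13, at chr19:34887298-34887298, with 6 of 42 in MCF10A (14.3%, adjusted exact p = 0.0207) and 2 of 43 in MDA-MB-468 (4.65%), and it lies where a same-strand exon of ENSG00000266953 overlaps GPI. The single one in MDA-MB-468, chr19:34892033-34892033 in exon 18, had 4 of 11 there (36.4%) and 2 of 7 in MCF10A (28.6%). The GPI m5C site with the highest ratio in MCF10A among those with a coverage of at least 20 was the first of the exon 6 run, chr19:34868680-34868680, with 5 of 30 (16.7%, adjusted exact p = 0.0328). Over the whole gene the pooled rate was 2.89% in MCF10A (2.68% to 3.12%) and 1.76% in MDA-MB-468 (1.63% to 1.89%).

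ENO1, the enolase that makes phosphoenolpyruvate, held the one cytosine called in both lines, of 33 called in either. It lies in the CDS at the start of exon 12, the last exon, and is shown with the other m5C sites of this gene. Windows were cut at exon ends.
ENO1 exon 12, CDS, both lines, chr1:8921461-8921488 (-): aattgaagaggagCtgggcagcaaggct
ENO1 exon 11, CDS, MCF10A, chr1:8922946-8922970 (-): tggccaagtacaacCagctcctcag
ENO1 exon 10, CDS, MCF10A, chr1:8923294-8923310 (-): ggctgtgcactgggCag
ENO1 exon 1, 5′UTR, MDA-MB-468, chr1:8938683-8938711 (-): ccggctttacgttCaCctcggtgtctgca

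At the exon 12 cytosine, chr1:8921475-8921475, 9 of 20 counts were unconverted in MCF10A (45.0%, 95% Wilson interval 25.8% to 65.8%, adjusted exact p = 1.95e-08) and 5 of 26 in MDA-MB-468 (19.2%, 8.51% to 37.9%, adjusted exact p = 0.0128). The intervals overlap. This was the site that also passed the Bonferroni adjustment in MCF10A. It was paired in the predicted structure of at least 1 ENO1 transcript, and its coverage was far below the ENO1 median of 188 in MCF10A and 152 in the MDA-MB-468 library. The exon 11 cytosine had 5 of 19 in MCF10A against 0 of 21 in MDA-MB-468, whose interval reaches 15.5%. The exon 10 cytosine had 10 of 116 in MCF10A (8.62%), against 2 of 96 in MDA-MB-468 (2.08%). The processed pseudogene ENO1P1 gave its own sites at a pooled rate of 4.35% in MCF10A and 4.96% in the MDA-MB-468 library, and how reads shared with such near-identical copies touched the 3 CDS sites was not tested.

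The remaining m5C sites were single cytosines or a pair. GAPDH, the dehydrogenase that couples triose oxidation to NADH, had 1 in each line, at different places. LDHA, the lactate dehydrogenase subunit that prevails in muscle, and PGK1, the kinase of the first ATP-forming step, had 1 each in MCF10A. ALDOA, the aldolase of muscle and most other cells, had a pair in its 5′UTR in MCF10A.
GAPDH exon 8, CDS, MCF10A, chr12:6647000-6647028 (+): agaaggtggtgaagCaggcgtcggagggc
GAPDH exon 6, CDS, MDA-MB-468, chr12:6646333-6646361 (+): gtcatgggtgtgaaCcatgagaagtatga
LDHA exon 7, CDS, MCF10A, chr11:18427076-18427104 (+): tgaagaatcttaggCgggtgcacccagtt
ALDOA exon 1, 5′UTR, MCF10A, chr16:30077126-30077153 (+): cctctcggaaCgcgccgCagaaggggtc
PGK1 exon 1, 5′UTR, MCF10A, chrX:77359767-77359795 (+): ggagcgcacgtcggCagtcggctccctcg

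The exon 8 cytosine of GAPDH had 41 of 1095 counts unconverted in MCF10A (3.74%, 2.77% to 5.04%, adjusted exact p = 0.016) and 16 of 648 in MDA-MB-468 (2.47%, 1.53% to 3.97%). Its ratio was the lowest and its coverage the highest among the m5C sites of these genes. The exon 6 cytosine of GAPDH had 6 of 41 in MDA-MB-468 (14.6%, adjusted exact p = 0.0128) and 5 of 85 in MCF10A (5.88%). The LDHA cytosine had 12 of 119 in MCF10A (10.1%, adjusted exact p = 0.00082) and 3 of 43 in MDA-MB-468 (6.98%), and their intervals of 5.86% to 16.8% and 2.40% to 18.6% overlap. The first ALDOA cytosine had 5 of 30 in MCF10A (16.7%, adjusted exact p = 0.0328) and 1 of 16 in MDA-MB-468. The PGK1 cytosine had 5 of 31 in MCF10A (16.1%, adjusted exact p = 0.0376) and 0 of 13 in MDA-MB-468, whose interval reaches 22.8%.

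PKM, the pyruvate kinase gene, had no m5C site at its 569 kept sites in MCF10A or its 466 in MDA-MB-468. The same was true of TPI1, the triose phosphate isomerase, at 145 and 121 sites, and of LDHB, the lactate dehydrogenase subunit that prevails in heart, at 172 and 18. At the median coverage of PKM, 171 in MCF10A, at least 12 unconverted counts were needed for a call, a ratio of 7.02%. LDHB was covered in MDA-MB-468 to a median of 13, where it was 4 counts or 30.8%, so lower ratios were not detectable there. PGAM1, the phosphoglycerate mutase, was barely covered, with 10 kept sites and 107 counts in MCF10A, all in the 5′UTR, and none in MDA-MB-468. Of those counts 11 were unconverted (10.3%, 5.84% to 17.5%).

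Of the 18 m5C sites in MCF10A, 11 had another within 10 nt (61.1%, 38.6% to 79.7%), where 87.3% of all m5C sites did. In MDA-MB-468 it was 13 of 16 (81.2%, 57.0% to 93.4%), where 87.7% did. With a coverage minimum of 20 these shares became 33.3% and 40%.

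**Figure D2:**
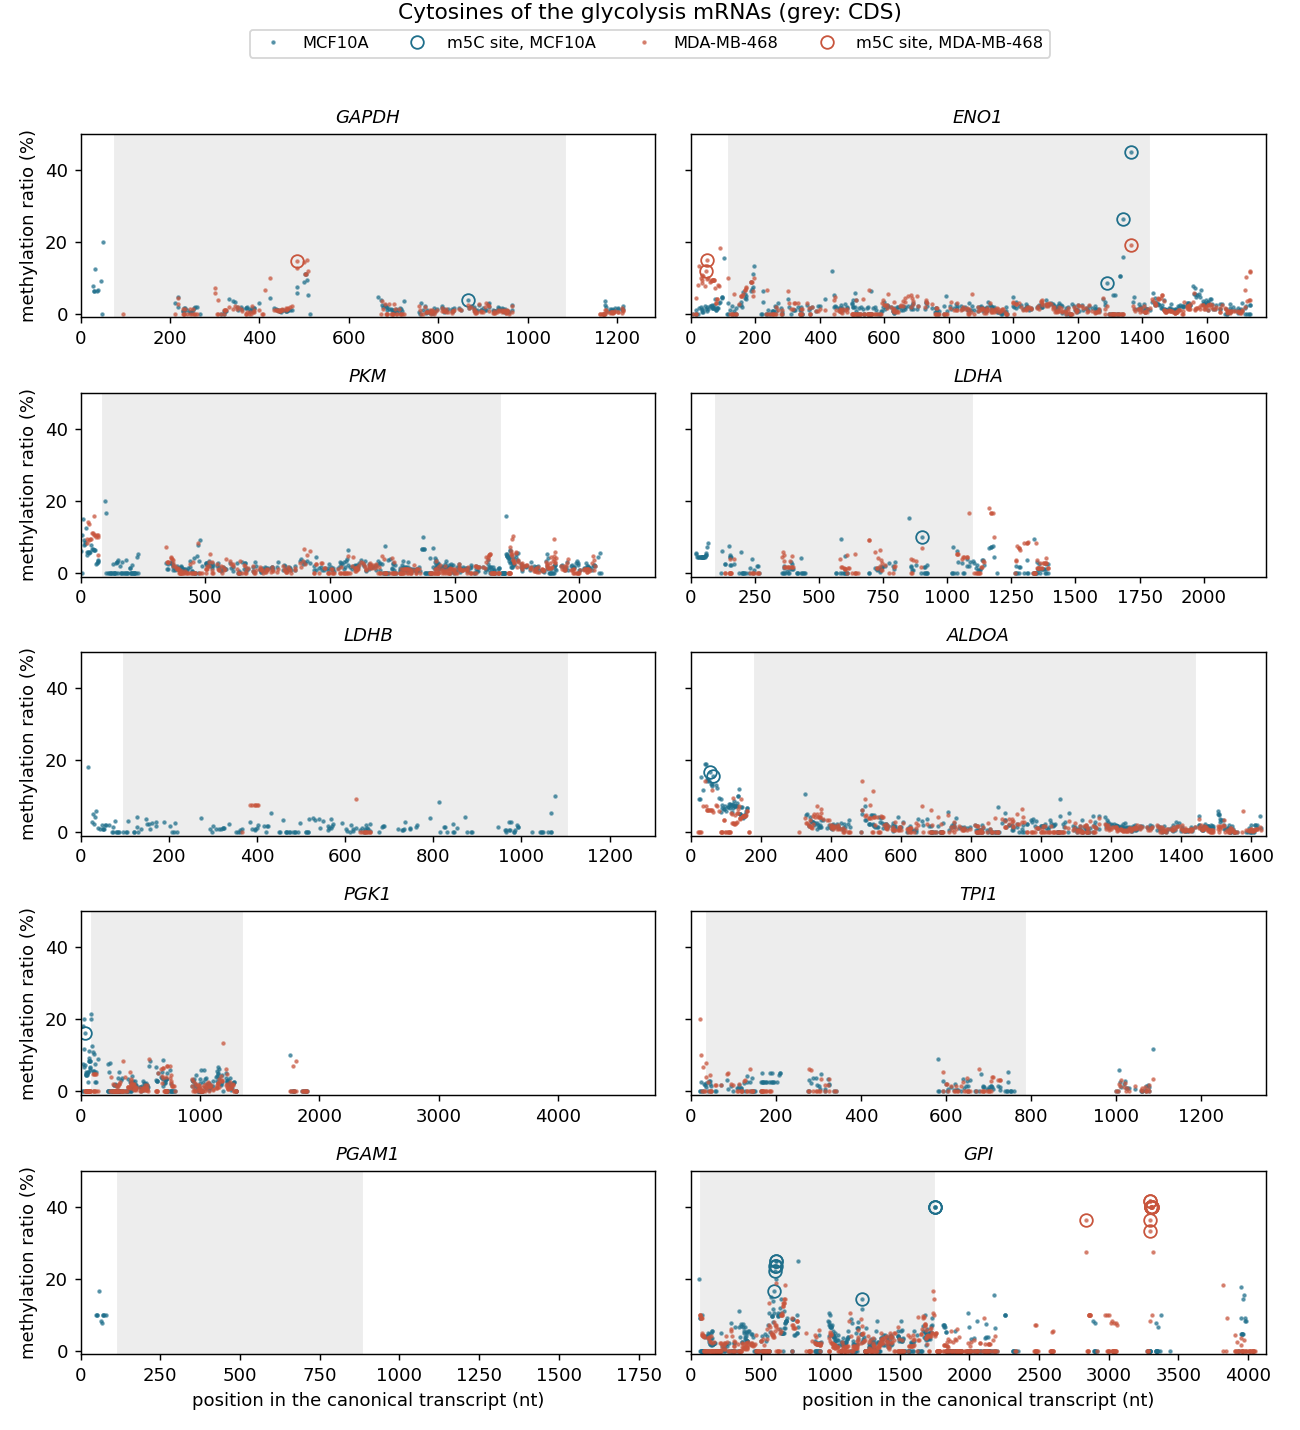
Methylation ratio in percent of each kept cytosine along the canonical transcript of each gene (position in nt from the 5′ end), for MCF10A and MDA-MB-468, with m5C sites ringed and the CDS shaded grey. The median ratio is 1.56% in MCF10A and 0.996% in the MDA-MB-468 library, the ENO1 site called in both lines stands at 45.0% and 19.2%, and the GPI run of MDA-MB-468 at 33.3% to 41.7%.

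The pooled rate differed by mRNA region, with the 5′UTR above the CDS and 3′UTR. In MCF10A it was 3.58% over 292 sites of the 5′UTR (3.32% to 3.87%), 1.54% over 2179 sites of the CDS (1.51% to 1.58%) and 1.60% over 541 sites of the 3′UTR (1.52% to 1.68%). The same regions, in this order, had in MDA-MB-468 3.93% (3.47% to 4.46%), 1.25% (1.21% to 1.29%) and 1.05% (0.990% to 1.11%). Over all mRNA sites the 5′UTR gave 2.70% in MCF10A and 2.56% in the MDA-MB-468 library, and the CDS gave 1.81% and 1.63%. The 5′UTR of the glycolysis genes thus lay above that of all mRNA sites in both libraries, while their CDS and 3′UTR lay below. In MCF10A this rested on ALDOA: without it, a setting chosen after seeing the data, the 5′UTR rate was 2.56% there, below all mRNA sites, and 4.17% in MDA-MB-468. In MDA-MB-468 ENO1 weighed most, with 101 of the 236 unconverted counts from 1188 of the 5999 counts of the 5′UTR. The rate without ENO1 was not computed. The share of 5′UTR sites that were m5C sites lay below that of all mRNA sites, with 1.03% against 2.24% in MCF10A and 0.870% against 1.95% in the MDA-MB-468 library. Coverage differed with region as well, with a median of 40 in the 5′UTR and 111 in the CDS in MCF10A, and 20 and 83 in MDA-MB-468. The 5′UTR rate was above the CDS rate in 8 of 9 genes in MCF10A, all but ENO1, and in 5 of 7 in MDA-MB-468, all but GAPDH and PGK1. Where the same cytosine is 5′UTR in 1 transcript and CDS in another, it was counted as 5′UTR. Counted as CDS instead, the 5′UTR rate was 4.51% and 5.03%.

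**Figure D3:**
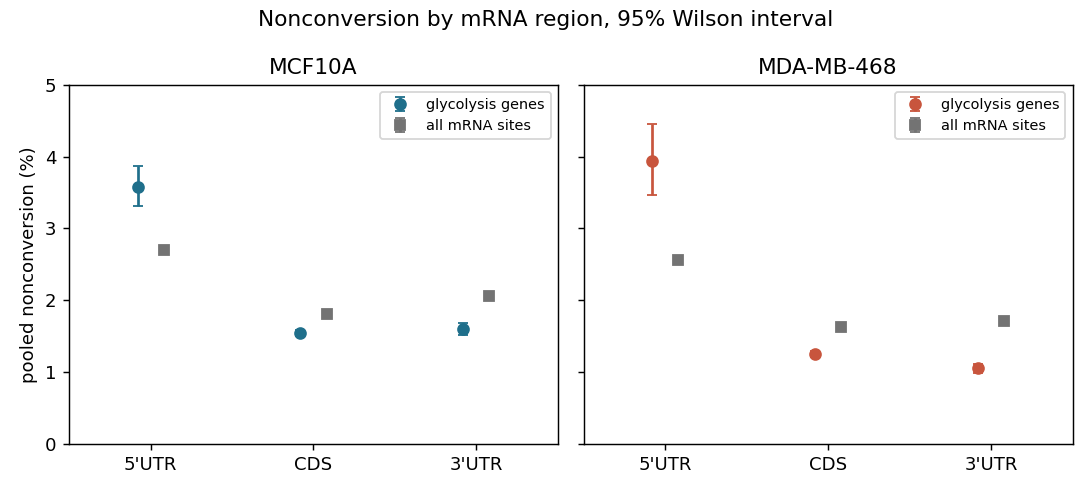
Pooled nonconversion rate in percent by mRNA region for the glycolysis genes (circles) and all mRNA sites (squares) in MCF10A and MDA-MB-468, with 95% Wilson intervals, which are smaller than the symbols for all mRNA sites. The 5′UTR of the glycolysis genes stands at 3.58% and 3.93%, above all mRNA sites at 2.70% and 2.56%.

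At 5′UTR cytosines kept in both lines the genes went in different directions. These comparisons were singled out after their values were seen, and they are given as intervals of 2 libraries, with no test. Of the 6 genes with at least 15 such cytosines, 4 had intervals that did not overlap, and 25.7% of the 1573 genes with that many did. ENO1 had 61 of 3976 counts unconverted in MCF10A (1.53%, 1.20% to 1.97%) and 101 of 1188 in MDA-MB-468 (8.50%, 7.05% to 10.2%) over 34 cytosines. The ratio was higher in MDA-MB-468 at 30 of them and higher in MCF10A at 2. PKM went the same way, from 5.49% (4.07% to 7.36%) in MCF10A to 10.6% (7.70% to 14.4%) in MDA-MB-468, with all 17 cytosines higher in MDA-MB-468. PGK1 was opposite, with 50 of 771 unconverted in MCF10A (6.49%, 4.95% to 8.45%) and 0 of 323 in MDA-MB-468, which allows up to 1.18% by the Wilson interval. All 21 of its cytosines were higher in MCF10A. Coverage in MDA-MB-468 was only 11 to 20 at these cytosines, and 12 to 22 at those of PKM. The bound of 1.18% treats counts from shared reads as independent, so it is too low. ALDOA had 7.24% (6.46% to 8.10%) in MCF10A against 3.52% (2.79% to 4.43%) in MDA-MB-468, with 59 of 69 cytosines higher in MCF10A. GAPDH at 1.34% and 0.808% and TPI1 at 2.004% and 2.81% had overlapping intervals. Among the 1573 genes, 95.2% had a lower 5′UTR rate than ENO1 in MDA-MB-468, but 39.0% did in MCF10A. Cytosines of 1 5′UTR share reads, so these counts of cytosines are not counts of independent observations.

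**Figure D4:**
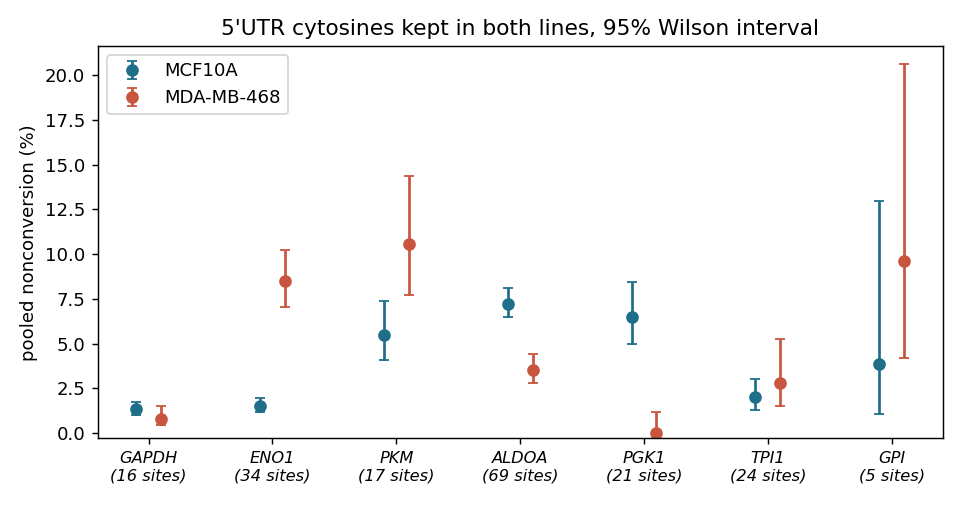
Pooled nonconversion rate in percent over the 5′UTR cytosines kept in both lines, per gene, with 95% Wilson intervals, for MCF10A and MDA-MB-468. ENO1 and PKM stand higher in MDA-MB-468 (8.50% and 10.6%), and ALDOA and PGK1 higher in MCF10A (7.24% and 6.49%); GPI has only 5 such cytosines and wide intervals.

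Sequence context and predicted structure were compared within each library. Cytosines followed by A or G had pooled rates of 1.86% and 1.80% in MCF10A, and those followed by C or T had 1.47% and 1.48%. The same order was seen in MDA-MB-468, at 1.48% and 1.41% against 1.10% and 1.11%. The intervals of the first pair lay above those of the second in both libraries. Cytosines paired in the predicted structure of any transcript of these genes, at 70 degrees, had 1.57% (1.48% to 1.66%) in MCF10A and unpaired ones 1.63% (1.59% to 1.66%). In MDA-MB-468 they had 1.33% (1.23% to 1.43%) and 1.23% (1.19% to 1.26%). The intervals of paired and unpaired cytosines overlapped in both libraries. Of 374 paired sites 6 were m5C sites in MCF10A (1.60%), and of 2638 unpaired sites 12 were (0.455%). In MDA-MB-468 it was 2 of 353 (0.567%) and 14 of 2403 (0.583%).

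In the plot of levels GAPDH was at 1001 counts per kb per 1000000 nuclear exonic counts in MCF10A against 837 in MDA-MB-468, ENO1 at 923 and 1174, ALDOA at 605 and 847, and PKM at 583 and 380. Each of these lay above at least 98.9% of genes with counts. The lower group was LDHB at 181.8 and 4.99, TPI1 at 98.7 and 61.7, GPI at 80.0 and 182.6, LDHA at 76.7 and 47.7, and PGK1 at 56.7 and 131.5. LDHB was 36.4-fold higher in MCF10A, and PGK1 and GPI were 2.32-fold and 2.28-fold higher in MDA-MB-468. These 3 of 9 genes passed a fold of 2, which 52.9% of 6426 genes did. With 1 library a line there is no error on a level, and in bulk RNA a smaller share of cells and less RNA per cell cannot be told apart. In LDHB 141 of the 172 kept sites in MCF10A also lie on ENSG00000285854, and in ALDOA 399 of 460 lie on ENSG00000285043, so counts there cannot be assigned to 1 gene.

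The pooled rate was higher in MCF10A in 7 of the 9 genes measured in both lines. That of all kept sites was also higher in MCF10A, at 1.99% against 1.81%. The share of all genes that went this way is not given here. Of the 8 genes with at least 50 kept sites in each line, 7 had intervals that did not overlap, 6 of them higher in MCF10A. Over 3934 genes 39.1% had such intervals, and 33.3% had them with the higher rate in MCF10A, and genes with fewer counts have wider intervals. GAPDH was at 1.25% (1.18% to 1.31%) in MCF10A and 0.888% (0.820% to 0.962%) in the MDA-MB-468 library, the lowest of these genes in each line. ENO1 was at 1.72% and 1.34%, PKM at 1.59% and 1.26%, ALDOA at 1.61% and 1.06%, and PGK1 at 2.23% and 1.28%. LDHA went the other way, with 1.68% (1.49% to 1.91%) in MCF10A against 2.41% (2.06% to 2.82%) in MDA-MB-468. Over the 122 LDHA sites kept in both lines it was 1.61% and 2.48%. TPI1 was at 1.35% and 1.23%, with overlapping intervals. Against all genes with at least 50 kept sites, whose median was 1.82% in MCF10A and 1.48% in the MDA-MB-468 library, 7 of 9 and 6 of 8 of the glycolysis genes lay below.

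Site by site, no cytosine of the glycolysis genes passed the test of a difference between the libraries. Of 2551 sites compared by Fisher's exact test (two-sided), 0 passed an adjusted p of 0.05, where 0.0893% of all shared sites did. At an unadjusted p below 0.05 there were 74 (2.90%), 48 higher in MCF10A against 26 higher in MDA-MB-468. Of all shared sites 1.14% were below it, but these sites were far less deep. In MDA-MB-468 they had a median coverage of 21, where the glycolysis sites had 78, and in MCF10A 24 against 113. The shares were not compared at equal depth, so they do not show that the glycolysis sites differ more often. The smallest unadjusted exact p, 0.00165 (adjusted exact p = 0.91), was at chr1:8938707-8938707 in the ENO1 5′UTR. This cytosine had 1 of 183 in MCF10A (0.546%), against 5 of 48 in MDA-MB-468 (10.4%). Of the 34 ENO1 5′UTR cytosines 15 had an unadjusted exact p below 0.05. They share reads, so they are not independent observations, and this 5′UTR was singled out after its values were seen.

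At the 967 cytosines of 8 genes with a coverage of at least 100 in both lines, the median ratio was 1.46% in MCF10A and 0.980% in the MDA-MB-468 library. Across these sites, which are not independent and share the base composition and reads of their neighbours, Pearson's r was 0.381 and Spearman's rho 0.401. A ratio of 5% or more was seen at 18 of them in MCF10A against 10 in MDA-MB-468, and at 1 in both, chr1:8921279-8921279 in the 3′UTR of ENO1, with 6 of 110 and 8 of 138. It was not an m5C site in either line. Over all 25161 nuclear sites of that depth in both lines, r was 0.925 and rho 0.334, and 838, 640 and 396 sites had a ratio of 5% or more in MCF10A, in MDA-MB-468 and in both.

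**Figure D5:**
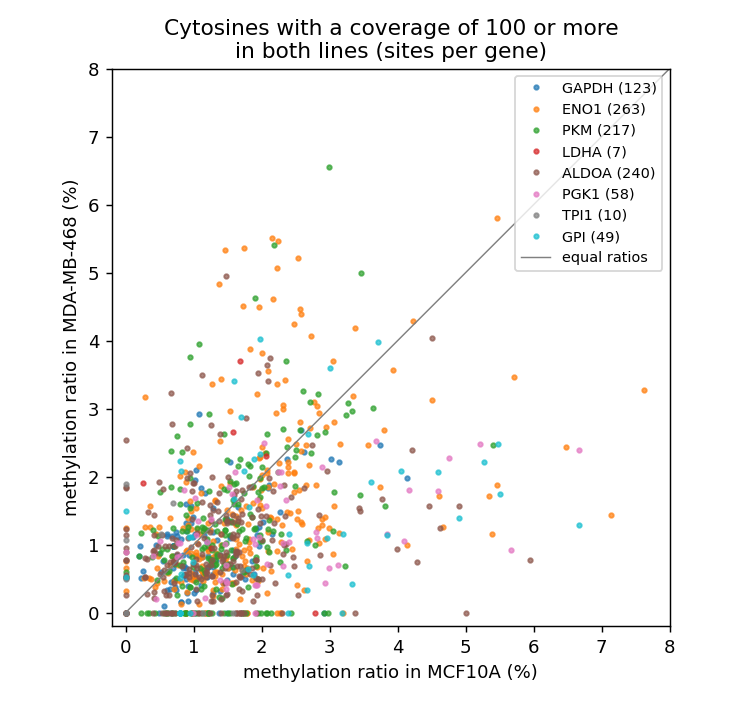
Methylation ratio in percent in MDA-MB-468 against MCF10A at the 967 cytosines with a coverage of at least 100 in both lines, coloured by gene, with a line of equal ratios. No point exceeds 7.62% in MCF10A or 6.56% in MDA-MB-468.

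PKM makes 2 isoforms by the choice of 1 of 2 exons of equal length, PKM1 in differentiated tissues such as muscle and PKM2 in proliferating cells. The PKM2 exon, chr15:72494795-72494961 on the minus strand, had 158.1 counts per cytosine in MCF10A and 69.8 in the MDA-MB-468 library. The PKM1 exon, chr15:72495363-72495529, had 17.5 and 5.55, with the counts of all deposited sites and 1 library a line. The pooled rate of the PKM2 exon was 1.21% (1.001% to 1.46%) in MCF10A against 0.599% (0.399% to 0.897%) in MDA-MB-468, and the PKM1 exon had 1.90% (1.09% to 3.29%) in MCF10A and no kept site in the MDA-MB-468 library. Neither exon held an m5C site.

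The list of 30 other genes of the pathway held other isozymes, hexokinases, phosphofructokinases and their regulators, pentose phosphate enzymes, glucose and lactate transporters and pyruvate dehydrogenase subunits, and 20 had kept sites in MCF10A against 19 in MDA-MB-468. Of their sites 60 of 7176 were m5C sites in MCF10A (0.836%, in 8 genes) and 21 of 5733 in MDA-MB-468 (0.366%, in 5 genes). Those in MDA-MB-468 were in TALDO1, the transaldolase, with 12, PFKL and TKT with 3 each, PGLS with 2 and PGD with 1. The median pooled rate of the genes with at least 50 kept sites was 1.84% and 1.48%, and that of the glycolysis genes with as many was 1.61% and 1.27%. Of 4898 of their sites kept in both lines 0 passed the test of the difference between the libraries, and 67 (1.37%) had an unadjusted p below 0.05.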

How the data were processed

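RNA BS-Seq was performed on poly(A) RNA of MCF10A and MDA-MB-468, 1 library each. The authors trimmed the reads with Trim Galore, mapped the trimmed reads to hg19 and counted cytosines with MeRanTK according to the methods; the submitters' processing notes name Trim Galore and Bismark. They deposited counts of unconverted and converted reads per cytosine and strand, not normalized, from a coverage of 5 upward. The files hold 3146911 sites and 76098976 counts for MCF10A, and 3489803 sites and 90960018 counts for MDA-MB-468. A site was kept if its coverage was 10 or more and it lay on the mitochondrial chromosome or on a same-strand exon of a basic transcript (GENCODE release 44, lifted to GRCh37). All sites on the chromosomes of the 10 genes fell on a cytosine of GRCh37. Mitochondrial positions do not follow that reference, so those sites entered the background only.

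Fisher's exact test was applied one-sided to each kept site, with the summed counts of all kept sites of its library as background, and two-sided between libraries to sites kept in both lines. Both used Benjamini-Hochberg adjustment over all sites tested, at 0.05. QNB, the test of the methods, was not run here. Levels are counts over all deposited exonic sites of a gene per kb per 1000000 nuclear exonic counts, and depend on the cytosine content of the gene. Structures were predicted with RNAfold (ViennaRNA 2.7.2, 70 degrees, pairing distance up to 150 nt) for 42 transcripts; the structure filter of the methods served as an alternative. Shares carry 95% Wilson intervals.

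All 10 genes were named. Sites named were, for each gene and line, the m5C site with the highest ratio at a coverage of at least 20, and for each gene the longest run of m5C sites (next within 10 nt). Sites, runs and 5′UTR comparisons outside this rule were chosen after their values were seen. The genes, the pathway list and the marker list were chosen with earlier results of these data known. The 200 sites simulated at a ratio of 30% all had a coverage of at least 20. Of these, 85.5% were called in MCF10A with 4 false calls, and 83.0% in MDA-MB-468 with 3. Of 200 sites deeply covered in both libraries and simulated at 40% in 1 library, 97.0% were found to differ, with 0 false. All other sites were simulated at 1 common rate. Recovery at lower coverage or lower ratios, and false calls under uneven conversion, were therefore not tested. Python 3.11.15, numpy 2.4.6, scipy 1.17.1 and pandas 2.3.3 were used. Reads carry no molecular identifiers. The values of 1 gene of the pathway list are not reported here singly.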

Additional observations from a re-analysis of the deposited data

Results flagged for a closer look

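Sites on pseudogenes, introns and the opposite strand of the 10 genes were not counted among their sites, and 4 such sets held cytosines that passed the same test against every deposited site covered 10 times or more, whose pooled rate was 2.12% in MCF10A against 1.99% in MDA-MB-468. On the exons of 104 listed pseudogenes of these genes, the pooled rate was 2.48% over 638 sites in MCF10A (2.37% to 2.60%, 10 sites past the threshold) and 3.02% over 454 sites in MDA-MB-468 (2.85% to 3.20%, 8 sites). ENO1P1 stood at 4.35% in MCF10A and 4.96% in the MDA-MB-468 library. It held 19560 of the 69640 pseudogene counts in MCF10A and 14414 of the 37260 in MDA-MB-468. Much of the pooled pseudogene rate thus comes from this 1 pseudogene. On the strand opposite to the exons, MCF10A had 16 sites, all at chr12:6647450-6647488 opposite GAPDH, where 208 of 213 counts were unconverted (97.7%, 94.6% to 99.0%) at a coverage of 10 to 17 and all 16 passed. MDA-MB-468 had no such site. In introns of the genes, MDA-MB-468 had 2510 sites with a pooled rate of 1.24% (1.15% to 1.33%) and 7 past the threshold, and MCF10A had 257 sites with 1.30% and 0 past the threshold. The share of every deposited site past this threshold is not given here. In the main test, 0.96% of all kept sites passed in MCF10A and 0.84% in MDA-MB-468.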

How the results depend on the processing

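No paired analysis was possible because each line has 1 library, and no library could be left out. The m5C sites, 18 in MCF10A against 16 in MDA-MB-468, became 1 and 0 with a Bonferroni adjustment. At sites kept in both lines alone they were 18 and 8, and with reads there also thinned to the lower coverage 11 and 6 (median of 20 draws, 8 to 15 and 4 to 7). With a coverage minimum of 20, MDA-MB-468 had 5. The pooled rate became 2.43% in MCF10A and 2.10% in the MDA-MB-468 library as the mean of per-site ratios. In MDA-MB-468 it was 1.20% with a coverage minimum of 20 and 1.29% over all deposited sites. The 5′UTR rate was 4.51% and 5.03% with CDS taken first, and 2.56% and 4.17% without ALDOA, chosen after seeing the data. The 3′UTR rate was 1.70% and 1.18% over all deposited sites, and 0.985% in MDA-MB-468 with a coverage minimum of 20. The share of m5C sites with another within 10 nt was 33.3% and 40% with that minimum. Testing only m5C sites of either line for a difference between the libraries gave 2 of 25 in these genes, in place of 0. Among all sites tested in this way, 1808 of 12052 passed. The 2 are ENO1 5′UTR sites that entered by their high ratio in MDA-MB-468. This test therefore shows neither that the libraries differ at these genes nor that they are equal there. Of 67 such comparisons of a main result with an alternative, 49 stayed within 1.5 times the main count, or inside the 95% Wilson interval of the main rate or share, and 18 did not. Of 73 for single genes, 68 stayed inside that interval, which is wide for PGAM1 and LDHB.

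Depth limits these results. At the median GPI coverage of 27 in MCF10A, 5 unconverted counts or 18.5% were needed. Runs rest on 4 or 5 counts per cytosine, and neighbouring cytosines share reads. Nothing here measures the spread between cultures.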
